A study of Mus musculus with 16 samples.

Results

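The splicing factor families examined here were the 65 protein-coding mouse genes of 5 families whose products recognise splice sites or build the spliceosome, out of 33072 genes in the count table. They were chosen by symbol alone, as every gene named Srsf, Hnrnp, Sf3a or Sf3b, Snrp or Prpf, and all 65 such genes of the reference annotation were in the table. They comprised 11 SR proteins, 20 heterogeneous nuclear ribonucleoproteins (hnRNPs), 9 SF3A and SF3B subunits, 12 Sm and U snRNP proteins and 13 Prp factors.

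The 16 samples came from 4T1 and 67NR, BALB/c cell lines that stem from a single spontaneous mammary tumor, with 4T1 metastatic and 67NR non-metastatic. Cells of each line received 15 µM CIX, a small-molecule inhibitor of cPLA2α, the enzyme that frees arachidonic acid from membrane phospholipids, or the DMSO vehicle for 24 h, giving 4 groups of 4 biological replicates. Each group is thus a single line in culture, without stroma or host. The libraries held between 21715700 and 29450629 estimated counts, no replicates of a group were identical, and 3 counts, taken as the limit of detection, corresponded to 0.102 to 0.138 CPM, counts scaled to a common library size, which covers counting error only.

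The epithelial markers (Krt8, Krt18, Krt14, Krt5, Epcam and Cdh1) summed to between 2412 and 2763 CPM in 4T1 and to between 1.07 and 5.19 CPM in 67NR, with Krt5 at 3 counts or fewer in all samples, and Krt14 likewise in 67NR, so that epithelial markers were nearly absent from 67NR. The mesenchymal markers (Vim, Sparc, Col1a1, Col3a1, Fn1 and Zeb1) summed to 2587 to 3391 CPM in 4T1 vehicle and 4522 to 5413 CPM in 4T1 CIX samples, and to 7229 to 8356 CPM in 67NR vehicle and 10192 to 11044 CPM in 67NR CIX samples, with Col3a1 at 3 counts or fewer in 4T1. The 5 immune markers, among them Ptprc, Cd3e, Lyz2 and Cd68, summed to 52.3 to 88.8 CPM in 4T1 vehicle, 132 to 198 CPM in 4T1 CIX, 9.11 to 14.0 CPM in 67NR vehicle and 35.3 to 41.7 CPM in 67NR CIX samples, with Cd3e and Lyz2 at 3 counts or fewer in 4T1 and Ptprc in 67NR. The endothelial markers reached at most 2.69 CPM. Of these markers Vim, Sparc and Cd68 rose and Epcam fell with CIX in 4T1, and Cd68 rose in 67NR. The part of these markers in the results below was not tested. Mitochondrially encoded genes took between 0.377% and 1.76% of the counts.

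Splicing removes introns from pre-mRNA. The U1 snRNP pairs with the 5′ splice site and the U2 snRNP, helped by SF3A and SF3B, with the branch point, before the U4/U6.U5 tri-snRNP joins and the Prp factors drive the rearrangements that lead to catalysis. The Sm proteins form the ring around the snRNA in each of these particles except U6. SR proteins bind exonic enhancers and mostly favour inclusion of an exon, hnRNPs often oppose it, and both adjust their own mRNA through poison exons, whose transcripts are degraded by nonsense-mediated decay.

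Promoters are shown for the 3 members that passed an adjusted p below 0.001 by limma-voom with CIX in 4T1 cells, because the text returns to these genes repeatedly. RefSeq (GRCm38.p6) supplied windows from 250 bases before to 50 bases after the transcript start for 57 of the 65 members. Capitals mark 5 short motifs searched on both strands, the CCAAT box (CCAAT), the GC box (GGGCGG), the E-box (CACGTG), the ETS core (CCGGAA) and the core of the cyclic-AMP response element (TGACGT). The windows are on the + strand at chr2:162931258-162931557 for Srsf6, at chr7:66060086-66060385 for Snrpa1 and at chr15:99294991-99295290 for Prpf40b, the latter from the nearer of 2 entries to the start of the gene. The Snrpa1 window begins inside the gene as GENCODE draws it, which starts at position 66059003.
Srsf6: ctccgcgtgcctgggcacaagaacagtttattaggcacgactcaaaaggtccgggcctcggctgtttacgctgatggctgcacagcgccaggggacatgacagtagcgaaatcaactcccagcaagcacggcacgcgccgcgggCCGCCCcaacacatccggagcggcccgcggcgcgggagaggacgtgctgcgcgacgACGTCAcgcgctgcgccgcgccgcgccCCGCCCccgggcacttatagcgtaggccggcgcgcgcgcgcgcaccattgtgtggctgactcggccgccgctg
Snrpa1: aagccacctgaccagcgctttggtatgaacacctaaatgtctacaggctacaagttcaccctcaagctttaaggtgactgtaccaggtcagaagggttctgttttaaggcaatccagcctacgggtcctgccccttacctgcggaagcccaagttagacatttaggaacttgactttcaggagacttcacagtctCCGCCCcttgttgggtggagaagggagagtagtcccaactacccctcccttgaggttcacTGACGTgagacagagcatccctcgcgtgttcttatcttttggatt
Prpf40b: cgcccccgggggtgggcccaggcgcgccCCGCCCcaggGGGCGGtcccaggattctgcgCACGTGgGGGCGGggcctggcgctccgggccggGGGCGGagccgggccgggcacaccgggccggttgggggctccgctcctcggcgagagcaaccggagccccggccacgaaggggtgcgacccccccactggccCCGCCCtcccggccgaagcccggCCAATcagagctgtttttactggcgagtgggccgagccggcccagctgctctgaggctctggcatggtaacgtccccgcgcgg

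The Srsf6 and Prpf40b windows were rich in G and C, at 70% and 78.3% of their bases, against 50.7% for Snrpa1. All 3 windows held a GC box, which 35.7% of 32841 promoter windows of the same length held. Srsf6 and Snrpa1 each held the cyclic-AMP element core, which occurred in 7.51% of all windows and 20.8% of the members' windows. Prpf40b held the E-box, which occurred in 7.15% and 14.3%. Among the 77 windows of the members, the ETS core was present in 48.1% and the GC box in 63.6%, against 14.9% and 35.7% of all windows. Overlapping windows of a gene were each counted, and a match is a description of the letters only.

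All members together took 1.00% to 1.07% of the counts in 4T1 vehicle samples, 0.901% to 0.990% in 4T1 CIX samples, 1.20% to 1.23% in 67NR vehicle samples and 1.06% to 1.08% in 67NR CIX samples, so that these shares did not overlap between vehicle and CIX in either line. After TMM scaling, which corrects CPM for differences in composition between libraries, the sums of all members overlapped in 4T1, at 9966 to 10538 CPM with vehicle and 9493 to 10159 CPM with CIX, and not in 67NR, at 11605 to 12172 against 10474 to 10941 CPM. Between genes, levels were compared as approximate TPM, which divides the counts by transcript length. On that scale Hnrnpk, which binds C-rich RNA, led with a mean of 579 TPM over the 16 samples, followed by Hnrnpa2b1 at 546 TPM. Only in 67NR vehicle samples was Hnrnpa2b1 above Hnrnpk, at 666 against 572 TPM. By the same mean the leading members of the other families were Sf3b2 at 376 TPM, Snrpb at 290 TPM, Prpf19 at 239 TPM and Srsf2 at 201 TPM. In 4T1 CIX samples, however, Prpf8 (180 TPM) was above Prpf19 (140 TPM), and Srsf11 (135 TPM) and Srsf5 (105 TPM) were above Srsf2 (99.7 TPM). At the other end, Srsf12 stayed at or below 0.206 CPM in all samples and was not tested in any comparison.

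In each sample the CPM of a family's members were summed, as shown in the plot of family sums. The SR proteins summed to 1251 ± 122 CPM (SD, n = 4) in 4T1 vehicle samples and to 938 ± 78.0 CPM in 4T1 CIX samples. In 67NR the sums were 1686 ± 87.5 CPM with vehicle and 1323 ± 102 CPM with CIX, and in neither line did the treated samples overlap the controls. The hnRNPs went from 6112 ± 154 to 5519 ± 142 CPM in 67NR without overlap, but from 5012 ± 224 to 4942 ± 342 CPM in 4T1 with overlap. Sm and U snRNP proteins likewise separated in 67NR, at 1153 ± 67.4 against 988 ± 46.4 CPM, and not in 4T1, at 853 ± 81.6 against 829 ± 84.8 CPM. SF3A and SF3B subunits and Prp factors overlapped between vehicle and CIX in both lines. CPM are relative to the library, and fewer transcripts per cell cannot be told apart from a change in the other transcripts or in the make-up of the culture.

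**Figure D1:**
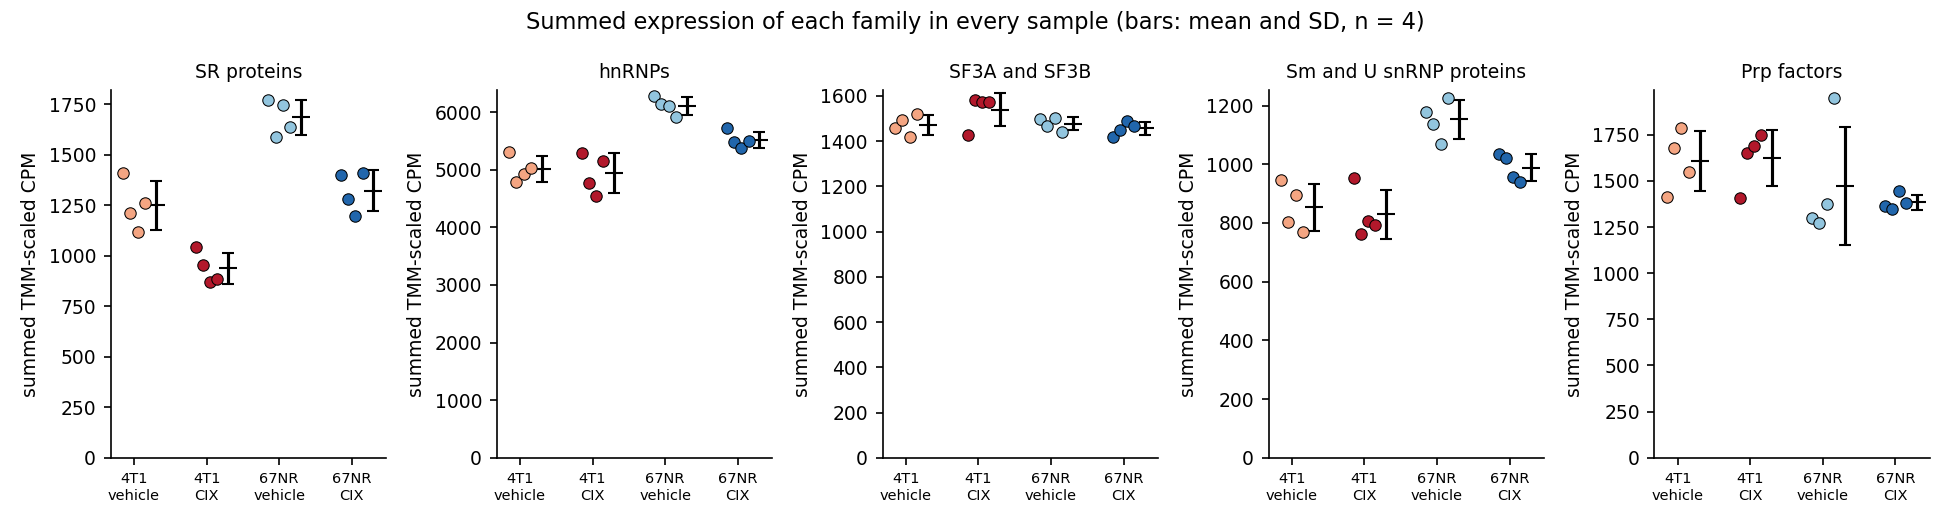
Summed TMM-scaled CPM (y axis) of the members of each family in every sample, by group (x axis), with the mean and SD of 4 samples as bars. The SR protein sums of 4T1 CIX samples (870.1 to 1041 CPM) lie below those of 4T1 vehicle samples (1118 to 1409.5 CPM), and those of 67NR CIX samples (1198 to 1409 CPM) lie below 67NR vehicle samples (1587 to 1770.4 CPM).

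The first comparison asked which members responded to CIX in the metastatic line. In 4T1 cells 3 of 64 members tested passed an adjusted p below 0.001 by limma-voom (4.69%), against 9.28% of all 11676 genes tested. The share depended on the model, since DESeq2 called 19 members (29.7%, against 26.5% of all genes) and 1 limma-voom fit of all 16 samples called 21 (32.8%, against 23%). Snrpa1 and Prpf40b rose and Srsf6 fell, where 5.33% of all genes rose and 3.96% fell. At the less strict threshold of 0.05, 14 members were higher and 18 lower (21.9% and 20.8% of all genes), and the groups did not overlap for 27 members, 13 higher and 14 lower (39.9% of all genes, 21.2% higher and 18.7% lower). The median log2 fold change was -0.08 over the members and -0.01 over all genes, but -0.0049 and -0.045 with no filter on low values.

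Srsf6, an SR protein that promotes exon inclusion, was at 231, 191, 148 and 208 CPM in the 4T1 vehicle samples and at 113, 100.3, 90.4 and 89.0 CPM in the 4T1 CIX samples. All treated samples lay below all controls. The log2 fold change was -0.99 ± 0.15 (SE), a 1.99-fold fall (adjusted p = 0.000896). When each of the 8 samples was omitted in turn it passed once (1 of 8), with log2 fold changes from -1.13 to -0.91 over these fits, and not when no filter on low values was set (adjusted p = 0.00106).

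The other SR proteins were mostly lower with CIX in 4T1 as well. Of the 10 tested, 9 had a negative log2 fold change, with a family median of -0.52, where 50.4% of all genes were negative. Srsf2, a factor of constitutive and alternative splicing, had the highest mean TPM of the family over all 16 samples. It was at 239, 178, 103 and 177 CPM in vehicle and at 133, 96.1, 79.7 and 86.6 CPM in CIX samples, with 1 control inside the treated range (log2 fold change -0.80 ± 0.26, adjusted p = 0.0305). Srsf1, the founding SR protein, had a log2 fold change of -0.95 ± 0.23 (adjusted p = 0.00875) and Srsf10, whose activity depends on its phosphorylation, of -0.63 ± 0.10 (adjusted p = 0.00116). Srsf3, which also acts in mRNA export, had -0.62 (adjusted p = 0.0088), and Srsf5, Srsf7, Srsf11 and Srsf4 lay between -0.42 and -0.04 with adjusted p above 0.05. Srsf9 was the exception, at 67.5, 58.8, 61.6 and 61.8 CPM in vehicle and 95.8, 80.7, 77.6 and 86.2 CPM in CIX samples without overlap (log2 fold change 0.43 ± 0.10, adjusted p = 0.00847). These adjusted p are those of limma-voom on the 4T1 samples, while DESeq2 also called Srsf1, Srsf9 and Srsf10, the fit of all 16 samples called the same genes and Srsf3, and Srsf10 was called without scaling beyond library size.

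Among the Sm and U snRNP proteins, Snrpa1 had the largest change of any member. Its product, U2 A′, sits with U2 B″ on the U2 snRNA. Snrpa1 was at 13.7, 7.51, 8.26 and 8.49 CPM in the 4T1 vehicle samples and at 50.9, 39.0, 40.2 and 49.0 CPM in the 4T1 CIX samples. Every treated sample was above every control, and the level reached was near that of untreated 67NR cells, at 52.8, 50.5, 54.0 and 56.3 CPM. The rise was 4.74-fold (log2 fold change 2.25 ± 0.19, adjusted p = 7.41e-05) and passed the threshold whichever of the 8 samples was omitted. Of the 31-base words in its transcripts, 4.62% also occurred in those of other genes. Over all members this share was above 10% for 16 genes, where reads may have been divided between genes, and it was 35.8% for Hnrnpf, 21.9% for Hnrnph2, 15.6% for Hnrnpk, 14.1% for Srsf5 and for Snrpa, 14.0% for Hnrnpm, 13.8% for Snrpe, 13.7% for Srsf3, 13.3% for Hnrnpc, 12.6% for Snrpg and 10.4% for Srsf10. For Sf3b4, Hnrnpa1, Hnrnpa3, Snrpn and Snrpf it was between 23.1% and 48.6% and is given with their values.

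The other 11 members of this family did not pass in 4T1 by limma-voom, while DESeq2 and the fit of all 16 samples also called Snrpb. Snrpb, which encodes the Sm proteins B and B′ and leads the family by TPM, was at 282, 266, 316 and 236 CPM in vehicle and at 229, 162, 175 and 152 CPM in CIX samples, all below the controls (log2 fold change -0.65 ± 0.14, adjusted p = 0.00601). Snrpd3, another subunit of the Sm ring, was in contrast higher, at 63.9, 39.0, 56.9 and 47.1 CPM against 95.0, 67.0, 69.4 and 68.8 CPM (log2 fold change 0.53 ± 0.18, adjusted p = 0.0362). Snrpn, an imprinted gene whose product resembles Sm B, had a log2 fold change of 0.50 ± 0.13 (adjusted p = 0.0123). The remaining 8 members had adjusted p above 0.05 and log2 fold changes between -0.25 and 0.21.

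Among the Prp factors, Prpf40b rose. It is a counterpart of yeast Prp40, a component of the U1 snRNP that bridges it to the branch point. Prpf40b was at 11.5, 13.4, 11.6 and 16.1 CPM in vehicle and at 32.4, 34.7, 29.0 and 31.5 CPM in CIX samples of 4T1 cells. The groups lay far apart, and the rise was 2.41-fold (log2 fold change 1.27 ± 0.14, adjusted p = 0.000185), passed in 7 of 8 such omissions. Prpf8, the scaffold of the catalytic core, was higher (0.58 ± 0.12, adjusted p = 0.00403), and Prpf18, which acts in the second catalytic step, was lower (-0.77 ± 0.15, adjusted p = 0.00351), both short of the threshold by limma-voom and past it by DESeq2 and in the fit of all 16 samples. Prpf19, the ubiquitin ligase of the complex that bears its name, spread widely within the groups, at 169, 409, 528 and 157 CPM in vehicle and 172, 127, 246 and 188 CPM in CIX samples (log2 fold change -0.64 ± 0.39, adjusted p = 0.221).

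No hnRNP and no SF3A or SF3B subunit passed in 4T1 when the 8 samples of that line were fitted by limma-voom or edgeR, although 13 of 20 and 6 of 9 had an unadjusted p below 0.05, where 51.1% of all genes did, and DESeq2 called 7 and 2, where it called 26.5% of all genes. The limma-voom fit of all 16 samples called 9 hnRNPs and Sf3a1, and the fit of 4T1 without sample 4 called Hnrnpm, Hnrnpu and Sf3a1. At an adjusted p below 0.05, 6 of the 20 hnRNPs were higher and 6 lower, where 21.9% and 20.8% of all genes were. Hnrnpdl, whose own mRNA carries regulated exons, was at 64.4, 74.2, 64.4 and 86.0 CPM in vehicle and at 107, 169, 125 and 180.4 CPM in CIX samples (log2 fold change 0.97 ± 0.18, adjusted p = 0.0026), while Hnrnpm, a binder of GU-rich RNA, went from 288, 208, 236 and 264 CPM to 193, 115, 110.4 and 137 CPM (-0.89 ± 0.18, adjusted p = 0.00391). Neither pair of groups overlapped. Hnrnpk showed no detectable difference, at 537, 536, 533 and 505 CPM against 534, 462, 484 and 568 CPM (-0.07 ± 0.08, adjusted p = 0.559). Sf3b2, a subunit next to the branch point, was at 431, 422, 445 and 446 CPM against 473, 557, 539 and 479 CPM (0.21 ± 0.08, adjusted p = 0.0625), with all treated samples above all controls. Sf3b1, the subunit that holds the branch point, had a log2 fold change of 0.00 ± 0.18 (adjusted p = 0.999), and the others lay between -0.40 and 0.67. The family medians of hnRNPs, 0.06, and of SF3A and SF3B, 0.00, were both below 0 without scaling beyond library size.

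**Figure D2:**
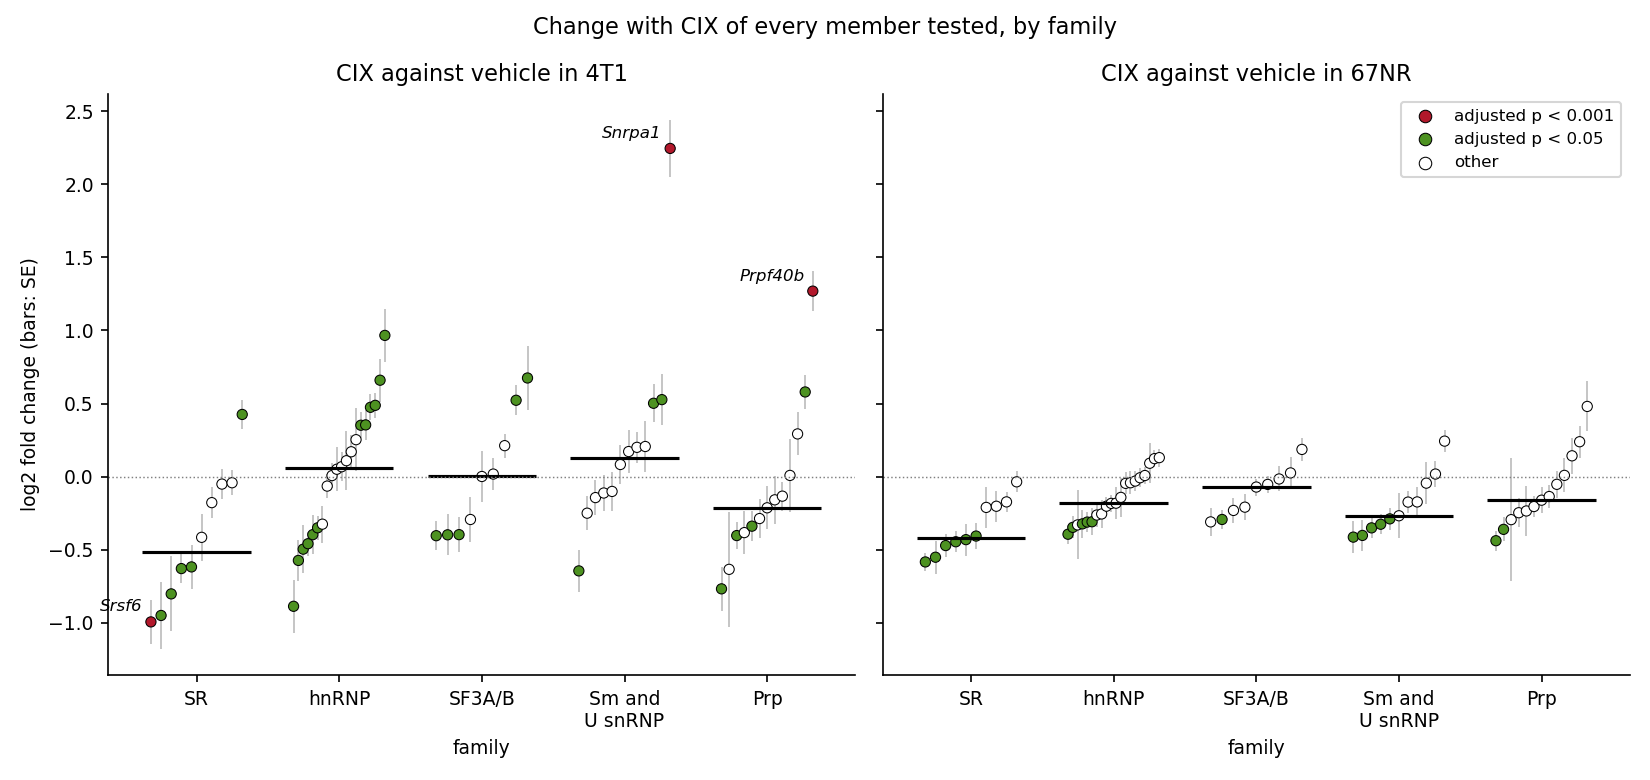
Log2 fold change with CIX (y axis, with SE) of every member tested, grouped by family (x axis) and ordered within it, in 4T1 (left) and 67NR (right). Red points pass an adjusted p below 0.001 and green points one below 0.05, horizontal bars are family medians, and in 4T1 Snrpa1 (2.25), Prpf40b (1.27) and Srsf6 (-0.99) pass an adjusted p below 0.001, whereas in 67NR no member does and all 10 SR proteins lie below 0.

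The same comparison in the non-metastatic line gave no call. In 67NR cells 0 of 63 members passed by limma-voom, where 0.389% of all 11583 genes did, 0.181% higher and 0.207% lower. At an unadjusted p below 0.05, 33 members differed (52.4%, against 32.8% of all genes), 30 of them lower (47.6%, against 16.9%). No member was called by edgeR (0), while DESeq2 called 8, all lower (12.7%, against 4.64% of all genes lower and 9% in either direction), and the fit of all 16 samples called Srsf7 alone, lower (1.59%, against 0.639% lower). At an adjusted p below 0.05 there were 19 members, all of them lower, against 9.25% of all genes lower and 8.5% higher. Of the 63 members, 51 (81%) had a negative log2 fold change, against 50.9% of all genes, with a median of -0.20 over the members. The groups did not overlap for 2 members that were higher and 20 that were lower (23.3% of all genes, 12.7% higher and 10.6% lower).

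All 10 SR proteins had a negative log2 fold change in 67NR, where 50.9% of all genes did, with a family median of -0.42. By limma-voom 0 of them passed the threshold, and 6 were lower at an adjusted p below 0.05, where 9.25% of all genes were. The member nearest to the threshold was Srsf7, an SR protein with a zinc knuckle, at 144, 144, 135 and 137 CPM in vehicle and at 95.4, 101, 88.2 and 94.9 CPM in CIX samples. The groups were well separated, yet the adjusted p missed the threshold by limma-voom (log2 fold change -0.58 ± 0.06, adjusted p = 0.00116). Srsf6 was at 259.6, 237, 269 and 236 CPM against 195, 185, 168 and 197 CPM (-0.45 ± 0.07, adjusted p = 0.00441), again without overlap. Srsf2 went from 347, 267, 312 and 281 CPM to 243, 199.8, 174 and 218 CPM (-0.55 ± 0.11, adjusted p = 0.0123). Srsf9, higher in treated 4T1 cells, had -0.04 ± 0.07 here (adjusted p = 0.767).

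The core particles showed small differences in 67NR. Prpf31, which joins U4/U6 to U5, was at 109, 97.3, 102 and 103 CPM in vehicle and at 78.6, 80.3, 75.8 and 72.3 CPM in CIX samples (log2 fold change -0.44 ± 0.07, adjusted p = 0.00386). Snrpb was at 324, 297, 272 and 373 CPM against 254, 251, 227 and 231 CPM (-0.40 ± 0.11, adjusted p = 0.0338), and both genes had all treated samples below the controls. The Sm genes Snrpd1, Snrpd2, Snrpd3 and Snrpf were also below an adjusted p of 0.05, with log2 fold changes of -0.41, -0.33, -0.35 and -0.29. Snrpa1, at 52.6, 58.8, 59.2 and 49.0 CPM with CIX, had 0.02 ± 0.09 (adjusted p = 0.915). Hnrnpk, at 561, 476, 533 and 493 CPM against 559, 489, 503 and 473 CPM, had -0.05 ± 0.08 (adjusted p = 0.716), and Sf3b2, at 399.8, 425, 391 and 359 CPM against 375, 384, 387 and 388 CPM, had -0.05 ± 0.06 (adjusted p = 0.559), with overlap for both. Prpf19 was at 251, 260.1, 308 and 908 CPM against 397, 338, 318 and 196 CPM (-0.29 ± 0.42, adjusted p = 0.674), and without the control at 908 CPM its log2 fold change was 0.15.

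Whether the response differed between the lines was tested with an interaction term over all 16 samples. By limma-voom 2 of 64 members passed (3.12%), against 7.86% of 12629 genes, and both responded more positively in 4T1 (4.81% of all genes, against 3.06% the other way). Snrpa1 differed by 2.23 ± 0.20 on the log2 scale (adjusted p = 4.76e-06), and passed whichever of the 16 samples was omitted. Hnrnpa3, of the hnRNP A/B group, was at 164, 102, 107 and 128 CPM in vehicle and 209, 193, 180.1 and 206 CPM in CIX samples of 4T1, and at 182, 219, 165 and 174 against 142, 144, 157 and 158 CPM in 67NR. It thus lay higher with CIX in 4T1 (log2 fold change 0.66, adjusted p = 0.00601) and lower in 67NR (-0.31, adjusted p = 0.048), without overlap in either line. The difference was 0.97 ± 0.18 (adjusted p = 0.000844), but it passed in 1 of 16 omissions of a sample and not by edgeR, and 27.6% of the 31-base words of Hnrnpa3 occurred in other genes, chiefly a predicted gene.

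Hnrnpul2, a relative of hnRNP U, had the next smallest adjusted p and did not pass by limma-voom. DESeq2 called it, together with Snrpa1, Hnrnpa3, Hnrnpdl and Snrpd3, which made 5 members (7.81%) against 15.7% of all genes. It was at 147, 134, 141 and 156 CPM against 191, 207, 218 and 205 CPM in 4T1 and at 216, 213, 216 and 209 against 199, 210.0, 233 and 219.8 CPM in 67NR (difference 0.49 ± 0.10, adjusted p = 0.0014). For Srsf6 the difference was -0.55 ± 0.17 (adjusted p = 0.0223) and for Prpf40b 0.79 ± 0.23 (adjusted p = 0.0183), so that neither was shown to respond differently at the threshold used. In all, 16 members differed in the positive and 3 in the negative direction below an adjusted p of 0.05, against 15.1% and 14.2% of all genes. The negative ones were Hnrnpm (-0.69), Prpf18 (-0.78) and Srsf6, and no other SR protein had a negative difference that passed 0.05.

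**Figure D3:**
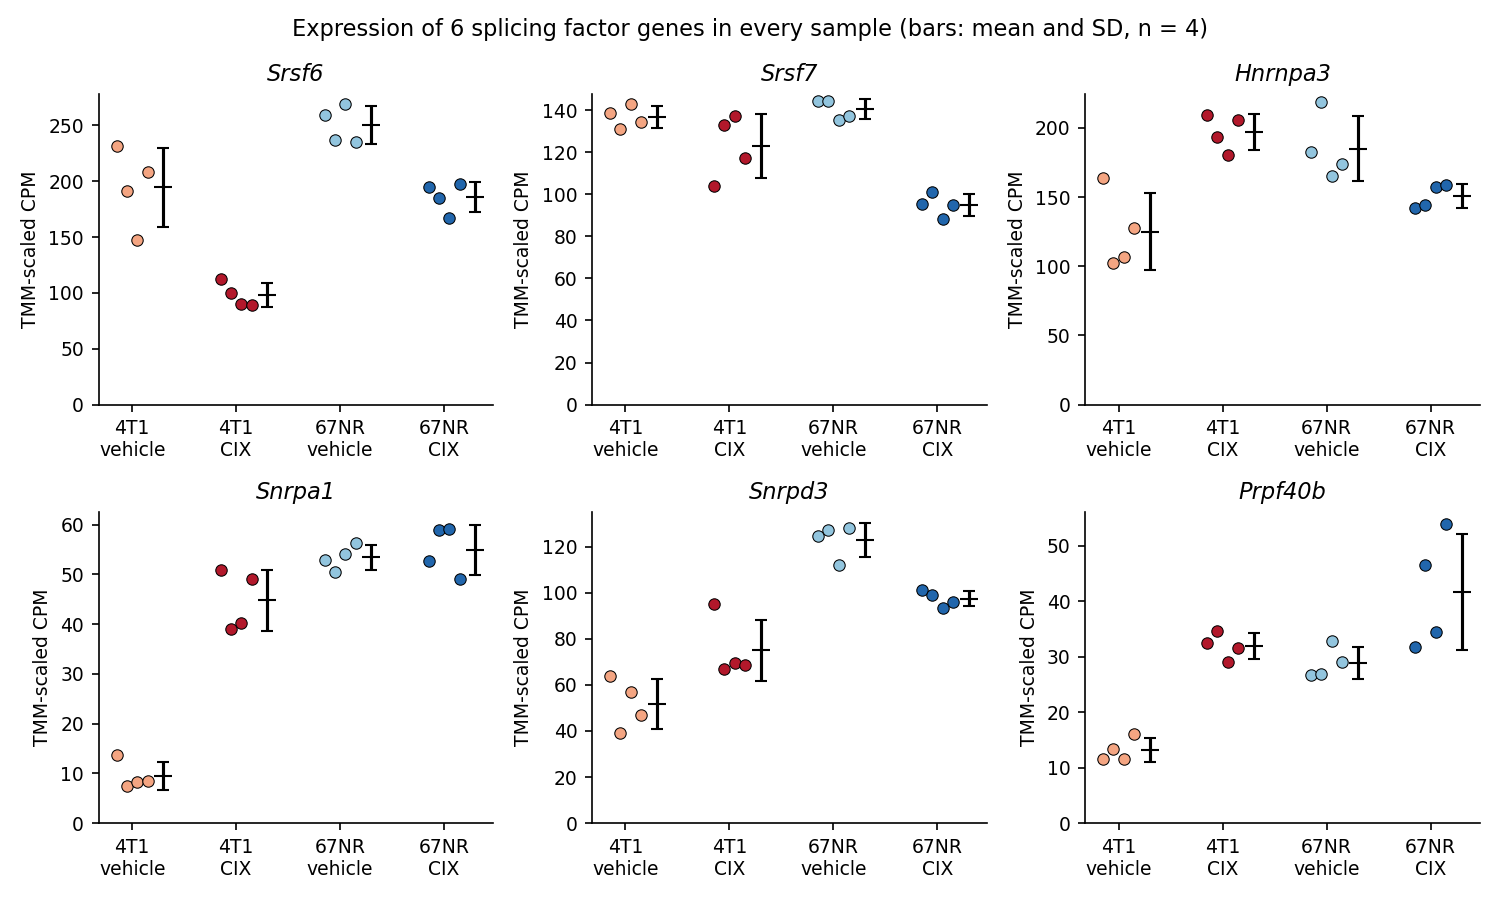
TMM-scaled CPM (y axis, starting at 0) of 6 members in every sample by group (x axis), with the mean and SD of 4 samples as bars. Snrpa1 is at most 13.7 CPM in 4T1 vehicle samples and lies between 39.0 and 59.2 CPM in the other 12 samples, and Srsf6 is lower with CIX in both lines.

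The untreated lines were then compared. With vehicle, 20 of 63 members differed between 4T1 and 67NR by limma-voom (31.7%), against 40% of all 11057 genes, with 5 higher and 15 lower in 4T1 (20.4% and 19.6% of all genes). At an adjusted p below 0.05, 11 were higher and 33 lower (33.3% and 34.1%), and the lines did not overlap for 42 members, 11 higher and 31 lower (61.6% of all genes, 31.3% higher and 30.3% lower). The median log2 fold change of the members was -0.27, against -0.01 over all genes. The 4T1 vehicle samples enter this comparison, the CIX comparison in 4T1 and the interaction alike, so that the values of a gene in these 3 are not independent.

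The Sm and U snRNP proteins held 6 calls among 11 tested, where 40% of all genes were called, and had a median log2 fold change of -0.52. Snrpa1 was 5.81-fold lower in 4T1 (log2 fold change -2.54 ± 0.17, adjusted p = 1.86e-06). Snrpd3, at 125, 127, 112 and 128 CPM in 67NR vehicle samples against the 4T1 levels given above, was 2.43-fold lower (-1.28 ± 0.15, adjusted p = 5.11e-05). Snrpf, a further Sm ring subunit, was at 47.5, 28.8, 34.5 and 33.6 CPM in 4T1 and at 79.4, 81.2, 71.7 and 80.0 CPM in 67NR (-1.14 ± 0.15, adjusted p = 9.58e-05), although 23.1% of its words were shared with other genes. Snrpd1 (-0.74) and Snrpd2 (-0.79) were lower too, while Snrpe, of the same ring, was higher, at 72.0, 78.5, 69.6 and 65.0 CPM against 44.9, 46.2, 49.8 and 49.0 CPM (0.57 ± 0.09, adjusted p = 0.000323). None of these 4 genes named with CPM overlapped between the lines.

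Snrpn was left out of this test because too few samples reached 1 TPM. It was at 9.10, 8.99, 11.0 and 10.5 CPM in 4T1 vehicle samples and was listed with at most 2 counts in any 67NR vehicle sample. Set against 3 counts in the smallest 67NR vehicle library, the 4T1 mean was at least 71.9-fold higher. With CIX it was at 15.0, 14.6, 13.0 and 14.2 CPM in 4T1 and at most 1 count in 67NR, at least 103-fold higher. Of its words, 24.7% were shared, mostly with 1 predicted gene.

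Of the 13 Prp factors, 4 were called higher and 3 lower, where 20.4% and 19.6% of all genes were, with a median of 0.18. Prpf6, Prpf3 and Prpf38a act in or beside the tri-snRNP. Prpf6 was at 173, 198, 246 and 161 CPM in 4T1 and at 104, 102, 96.8 and 123 CPM in 67NR (log2 fold change 0.84 ± 0.14, adjusted p = 0.000625). All 4T1 samples exceeded all 67NR samples.

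Prpf3 was at 85.3, 89.3, 67.9 and 97.3 CPM against 52.8, 49.7, 53.8 and 43.6 CPM (0.75 ± 0.12, adjusted p = 0.000531). Prpf38a was at 58.7, 52.9, 56.4 and 52.4 CPM against 34.5, 32.6, 36.5 and 31.7 CPM (0.69 ± 0.08, adjusted p = 6.64e-05). Lower in 4T1 were Prpf40b (-1.15 ± 0.14, adjusted p = 6.06e-05), Prpf31 (-0.93 ± 0.10, adjusted p = 3.72e-05) and Prpf39, a U1 snRNP protein. Prpf39 was at 13.9, 18.4, 13.9 and 23.6 CPM in 4T1 and at 39.2, 33.7, 38.2 and 44.1 CPM in 67NR (-1.19 ± 0.18, adjusted p = 0.000281). When each of the 8 samples was omitted in turn, the call of Prpf3 held in 1 fit, those of Prpf6 and Snrpe in 4 fits and that of Prpf39 in 5 fits.

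The remaining families held fewer calls. Of the SR proteins Srsf5 (-0.73) and Srsf10 (-0.56) were lower in 4T1, of the hnRNPs Hnrnpa1 (-0.95) and Hnrnpul2 (-0.57), and of SF3A and SF3B the subunits Sf3b5 (-0.93), Sf3a2 (-0.57) and Sf3b4 (-0.51). The calls of these 3 subunits each held in 2 of 8 omissions of a sample, and that of Snrpd1 in 1, those of Snrpd2 and Srsf10 in 5 and that of Srsf5 in 6, while edgeR called Sf3a2 but not Sf3b4, Sf3b5 or Snrpd1. Hnrnpa1, a repressor of exon inclusion, was at 384, 353, 376 and 373 CPM in 4T1 and at 734, 737, 717 and 658 CPM in 67NR without overlap, and 29.3% of its words were shared. Sf3b4 shared 48.6% of its words with a single predicted gene, the largest share among the members, and its values are uncertain to that extent. Hnrnpr had a larger difference than any of these, -1.39 ± 0.26, but narrowly missed the threshold (adjusted p = 0.00108 by limma-voom), with 1 vehicle sample of 67NR at 247 CPM and the others between 111 and 137 CPM. It was called by DESeq2, and by limma-voom with DESeq2 size factors, without scaling beyond library size, with no filter or edgeR's filterByExpr, in the fit of all 16 samples and without the 67NR vehicle sample 5 or 13.

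**Figure D4:**
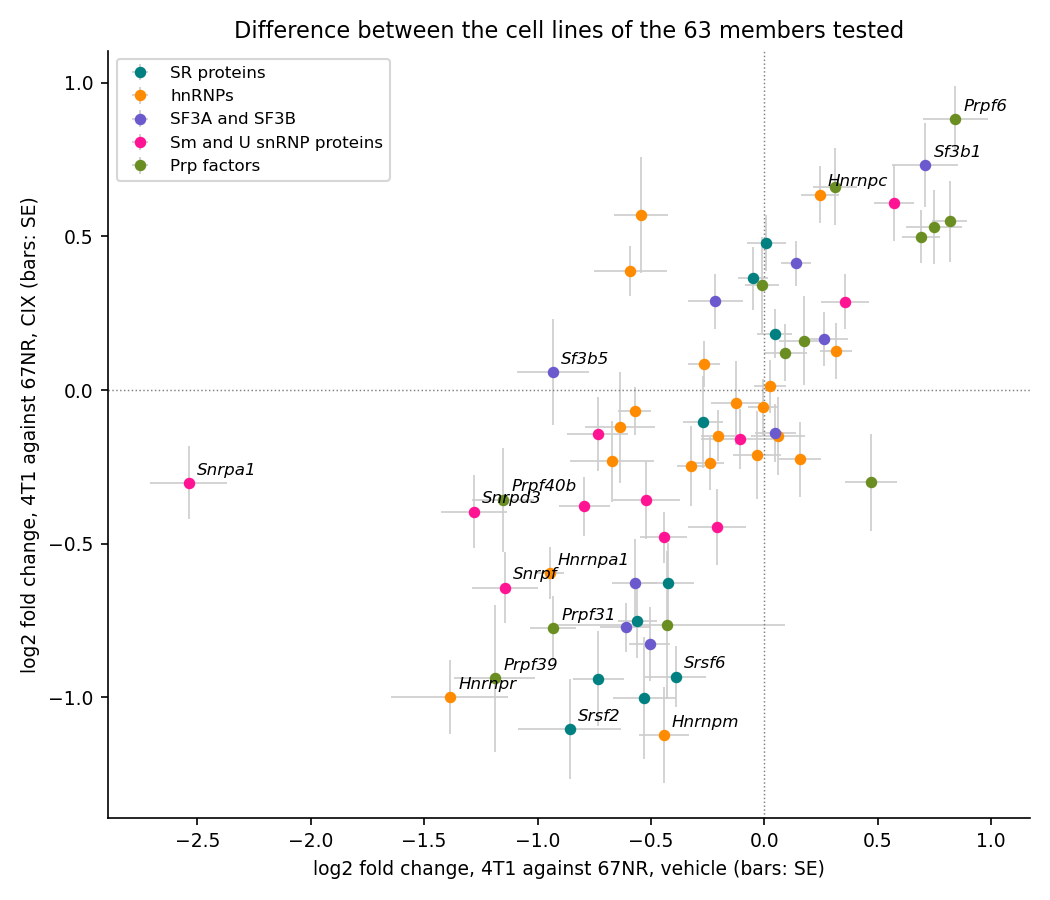
Log2 fold change of 4T1 against 67NR with vehicle (x axis) and with CIX (y axis) for the 63 members tested, with SE as bars and colours for the families. Snrpa1 lies at -2.54 with vehicle and at -0.30 with CIX, while Prpf6 lies at 0.84 and 0.88.

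With CIX, 16 of 63 members differed between the lines by limma-voom (25.4%), against 34.2% of 10948 genes, with 4 higher and 12 lower in 4T1 (18.3% and 15.9% of all genes). At an adjusted p below 0.05, 15 were higher and 23 lower (32.3% and 31.6%), and the lines did not overlap for 33 members, 16 higher and 17 lower (57.6% of all genes, 29.4% higher and 28.1% lower). Prpf6 was again higher, at 139, 188, 166 and 180.2 CPM in 4T1 and at 96.2, 83.6, 85.7 and 97.3 CPM in 67NR (log2 fold change 0.88 ± 0.11, adjusted p = 6.91e-05). Hnrnpc, which binds U-rich tracts, was at 304, 381, 385 and 396 CPM against 233, 234, 245 and 226 CPM (0.64 ± 0.09, adjusted p = 0.00021). Prpf38a, at 44.0, 42.6, 42.2 and 39.7 CPM against 31.6, 29.7, 28.0 and 29.6 CPM, had 0.50 ± 0.09 (adjusted p = 0.000634). Sf3b2 had 0.41 ± 0.07 (adjusted p = 0.000721). In these 4 genes every treated 4T1 sample was above every treated 67NR sample. The calls of Sf3b2 and Prpf38a held in 2 of 8 omissions of a sample and were lost without scaling beyond library size, and that of Hnrnpc held in 5 of 8.

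Of the 12 lower members, 4 were SR proteins. Srsf2 was 2.15-fold lower in treated 4T1 cells (log2 fold change -1.10 ± 0.16, adjusted p = 0.000243), Srsf6 1.91-fold lower (-0.93 ± 0.10, adjusted p = 2.68e-05) and Srsf10 1.68-fold lower (-0.75 ± 0.12, adjusted p = 0.000413). Srsf5, the fourth, was at 179, 139, 109 and 109.9 CPM in 4T1 and at 275, 221, 245 and 264 CPM in 67NR (-0.94 ± 0.16, adjusted p = 0.000486). None of the 4 overlapped between the lines. The call of Srsf5 held in 2, that of Srsf10 in 3, that of Srsf2 in 5 and that of Srsf6 in 8 of 8 omissions of a sample. Hnrnpm, at 278, 309, 285 and 306 CPM in treated 67NR cells, was 2.18-fold lower in 4T1 (-1.12 ± 0.16, adjusted p = 0.000162). Hnrnpr was at 58.2, 50.6, 65.5 and 67.6 CPM against 140.3, 116, 120.3 and 105 CPM (-1.0 ± 0.12, adjusted p = 6.08e-05). Hnrnpa1 (-0.60), Prpf31 (-0.77), Sf3b3 (-0.77), Sf3b4 (-0.83), Snrpa (-0.48) and Snrpf (-0.64) made up the rest. The call of Snrpf held in 1 of 8 omissions and not by edgeR, that of Snrpa in 3 and that of Sf3b4 in 6.

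The 2 line comparisons use different samples. Members called in both were Prpf6 and Prpf38a, higher in 4T1, and Hnrnpa1, Prpf31, Sf3b4, Snrpf, Srsf5 and Srsf10, lower, which makes 8 members, or 40% of those called with vehicle and 50% of those called with CIX. Over all genes, 2567 were called in both, or 58.1% and 68.5%. Snrpa1 and Prpf40b, called with vehicle, had differences of -0.30 ± 0.12 (adjusted p = 0.048) and -0.36 ± 0.17 (adjusted p = 0.0908) with CIX.

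Libraries differed in how much the calls rested on them. Without the 4T1 CIX sample numbered 4, the count of members called was 27 between the treated lines in place of 16, 6 in 4T1 in place of 3 and 4 in the interaction in place of 2. Without the other treated 4T1 samples 8, 12 and 16, the treated lines differed in 9, 10 and 10 members. Without the 4T1 vehicle samples 7, 11 and 15, the untreated lines differed in 10, 13 and 12 members in place of 20, and without sample 7 only 1 member, Snrpa1, was called in 4T1. In the interaction the count was 3 without sample 3 and 1 without any of the remaining 14 samples. Counts over all genes in these fits are not reported here, so whether the members moved apart from all genes cannot be told. Sample 10, a 67NR CIX sample, had 0.377% mitochondrial counts where the other 67NR samples had 1.14% to 1.76%, and without it, too, 0 members were called in 67NR. In 4T1 the log2 fold change was negative for 8 or 9 of 10 SR proteins whichever sample was omitted, and in 67NR for 9 or 10 of 10. With no filter on low values it was negative for 7 of 11 SR proteins in 4T1, with a median of -0.36, and for 10 of 11 in 67NR.

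Other genes of the splicing machinery were grouped into 8 lists. Together 10 of their 145 genes tested passed in 4T1 cells with CIX, where 9.28% of all genes did. In 4T1 cells with CIX, 1 of 16 exon junction complex and decay genes passed (lower), 1 higher and 1 lower of 14 SR protein kinases and SR-related genes, 1 of 11 genes of 3′ splice site recognition (higher), 2 higher and 1 lower of 20 other U snRNP proteins, 1 higher and 1 lower of 23 Prp19 complex and catalytic step genes, 1 of 34 other RNA-binding regulators (higher), and 0 of 13 LSm and 0 of 14 snRNP assembly genes by limma-voom or edgeR. Of these last lists 8 and 4 genes had an unadjusted p below 0.05, where 51.1% of all genes did, and DESeq2 called 2 of each, where it called 26.5% of all genes. The kinase Clk3, which phosphorylates SR proteins, rose (log2 fold change 1.07), and Tra2a, an SR-related activator, fell by 0.80 on the log2 scale. Magoh, of the exon junction complex, fell by 1.05 and Rbm17, which acts at the 3′ splice site, rose by 0.81.

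Zmat5, a protein of the minor U11/U12 snRNP, rose by 1.92 and Rnpc3, of the same particle, fell by 1.36, although 16.45% of its words were shared with Amy1. Rbm22 and Bud31, both of the catalytic spliceosome, moved by 1.03 and -0.88, and the epithelial regulator Esrp1 rose by 0.76. In 67NR cells 0 of the 144 genes on these lists that were tested passed by limma-voom or edgeR, 39 had an unadjusted p below 0.05 (27.1%, against 32.8% of all genes) and DESeq2 called 8 (5.56%, against 9%), where limma-voom called 0.389% of all genes. In the interaction 9 of 146 passed, where 7.86% of all genes did. Zmat5 differed by 1.98, Snrnp35 and Ddx23, of the minor and the U5 particle, by 1.61 and 1.42, Clk3 by 1.04, Rbm17 by 0.80, Lsm6, of the ring on U6 snRNA, by 1.39, Gemin6, of the SMN complex that loads Sm rings, by 0.99, Rbm22 by 0.87 and Cwc25 by -0.85.

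Zmat5 had the largest change on these lists. It was at 5.02, 2.71, 2.41 and 2.67 CPM in 4T1 vehicle samples, at 12.8, 11.8, 11.1 and 11.6 CPM in 4T1 CIX samples, and at 19.3 to 21.9 CPM in all 67NR samples. With vehicle it was lower in 4T1 by a log2 fold change of -2.78 and with CIX by -0.79, and both passed. Between the untreated lines 51 of 143 genes on the lists passed, where 40% of all genes did (20.4% higher and 19.6% lower). The lists held 6 higher and 1 lower of 16 exon junction complex and decay genes, led by Upf2 (1.77) and Upf3a (-0.90), 2 and 2 of 14 SR-related genes (Dyrk1a 0.75, Pnn -1.59), 2 and 1 of 11 genes of 3′ splice site recognition (Zrsr2 0.94, Phf5a -0.91), 4 and 6 of 20 other U snRNP proteins (Snrnp48 1.86, Zmat5), 1 and 2 of 13 LSm genes (Lsm2 0.45, Lsm6 -1.13), 8 and 2 of 23 Prp19 complex genes (Dhx38 1.23, Rbm22 -1.01), 3 and 3 of 14 assembly genes (Gemin8 1.09, Gemin6 -1.23) and 2 and 6 of 32 other regulators (Mbnl2 2.46, Mbnl1 -1.65).

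Between the treated lines 34 of 143 genes on the lists passed, where 34.2% of all genes did (18.3% higher and 15.9% lower). The counts were 4 higher and 0 lower of the exon junction complex and decay genes (Upf2 1.42), 2 and 0 of the SR-related genes (Clk3 0.82), 2 and 2 of the 3′ splice site genes (Zrsr2 1.10, Phf5a -0.95), 2 and 5 of the other U snRNP proteins (Snrnp48 2.25, Zmat5), 0 of the LSm genes by limma-voom (7 at an unadjusted p below 0.05, 0 by edgeR and 2 by DESeq2, against 67.2% of all genes unadjusted and 48.1% by DESeq2), 5 and 0 of the Prp19 complex genes (Ddx41 1.11), 3 and 2 of the assembly genes (Gemin8 1.30, Gemin7 -0.78) and 2 and 5 of the other regulators (Mbnl2 2.18, Ptbp2 -1.46).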

How the data were processed

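Stranded mRNA libraries of 16 samples were sequenced from 1 end. The authors deposited estimated counts per Ensembl gene (GRCm38), made with Salmon 0.12 per the labels and summarised with tximport. Whether tximport scaled them is not given in the sources used here, and none of the values above 0 was whole. The members, lists and tests were chosen with earlier results of these data known.

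Counts were rounded. CPM were scaled by TMM over all samples, and approximate TPM used GENCODE M21 lengths. Genes below 1 TPM in more than 3 samples of a comparison were left out (for the interaction, only those failing in both lines). Tests used limma-voom (limma 3.58.1, edgeR 4.0.16, R 4.3.3) with a Benjamini-Hochberg adjusted p below 0.001 over all genes tested, as a two-sided test, and the script was tested on simulated data. Log2 fold changes are CIX minus vehicle or 4T1 minus 67NR. Named were the 5 largest rises and falls called in each comparison, the 3 smallest adjusted p where fewer than 3 were called, members called in the interaction, and the leading gene of each family by TPM. Other members shown were chosen after their values were seen. Some items covered by this rule are not reported here. Alternatives were edgeR, DESeq2 1.42.0, other scalings, filters, thresholds and left-out samples. Replicates were labelled biological, and p-values set each difference against the spread between them. They do not cover variation between further cell lines, since each group is a single line.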

Additional observations from a re-analysis of the deposited data

Results flagged for a closer look

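In 23 of 260 groups of 4 samples, 1 sample lay farther from the others than Dixon's 95% critical value allows, where chance alone gives about 13. Of these, 6 were in the 4T1 CIX sample 4. In that sample Hnrnpab was at 527 CPM (others 326 to 355), Hnrnpu at 247 CPM (others 168 to 175), Hnrnpa0 at 138 CPM (others 94.0 to 101), Snrpd2 at 112 CPM (others 88.7 to 90.9), Snrpd3 at 95.0 CPM (others 67.0 to 69.4) and Hnrnpc at 304 CPM (others 381 to 396).

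Among 4T1 vehicle samples, sample 3 was far above the others for Hnrnpab at 647 CPM (others 486 to 507), Snrpd2 at 109 CPM (others 79.8 to 83.6) and Snrpa1 at 13.7 CPM (others 7.51 to 8.49). Sample 11 was above for Snrpb2 at 49.4 CPM (others 34.2 to 36.1). Sample 15 was above for Prpf8 at 538 CPM (others 408 to 427) and below for Hnrnpk at 505 CPM (others 533 to 537).

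Among 67NR vehicle samples, sample 13 was above for Prpf19 at 908 CPM (others 251 to 308) and Snrpg at 89.0 CPM (others 63.5 to 66.6), and below for Hnrnpab at 476 CPM (others 555 to 568). Sample 1 was above for Snrpc at 69.4 CPM (others 57.9 to 59.3). Sample 9 held Snrpn at 0.0792 CPM where the others were at 0, and sample 5 held Srsf12 at 0 where the others were between 0.0396 and 0.0425 CPM, all of which are under 3 counts.

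Among 67NR CIX samples, sample 2 was above for Hnrnpd at 154 CPM (others 123 to 125) and Snrpe at 51.0 CPM (others 39.4 to 40.8), and below for Hnrnpu at 212 CPM (others 222 to 223). Sample 10, which had the lowest share of mitochondrial counts, was below for Hnrnpa2b1 at 540.4 CPM (others 624 to 629.7) and for Snrpn, at 0 where the others were between 0.0385 and 0.0435 CPM.

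The CIX response differed between the lines by the interaction test (limma-voom) for Snrpa1, by 2.23 on the log2 scale, and for Hnrnpa3, by 0.97. Every CIX sample of Hnrnpa3 was above the controls in 4T1 and below them in 67NR.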

How the results depend on the processing

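No gene named with a call changed sign. Without a call, Prpf19 in 67NR went from -0.29 to 0.15 without the vehicle sample 13. Without scaling beyond library size, the medians of the hnRNPs and of SF3A and SF3B in 4T1 and of the Prp factors in the interaction turned below 0, and that of SF3A and SF3B also with DESeq2 size factors. With DESeq2 19 members were called in 4T1, 8 in 67NR, 5 in the interaction and 27 between the treated lines, against 3, 0, 2 and 16 by limma-voom. At an adjusted p below 0.05 the counts were 32, 19, 19 and 38, and 44 against 20 between the untreated lines. In 1 fit of all 16 samples, 21 were called in 4T1 and 1 in 67NR (Srsf7). In the interaction edgeR and no scaling beyond library size each called 1. Leaving out a sample gave 1 to 6 calls of members in 4T1, 0 to 0 in 67NR, 1 to 4 in the interaction, 10 to 22 between the untreated and 9 to 27 between the treated lines. These ranges are given without counts over all genes in the same fits and do not set the members apart from them. The causes were not tested. The other alternatives stayed within 1.5 times the count. For the 24 named results with a call, 303 values under alternatives kept it and 71 lost it, and for the 14 without, 208 stayed without and 9 gained one. Over all genes, CIX in 4T1 gave 622 higher and 462 lower calls, but 509 and 529 without scaling; the totals were 1084 by limma-voom, 3096 by DESeq2, 2688 in 1 fit of all samples and 4984 at 0.05. In 67NR they were 45, 1042 by DESeq2 and 151 in 1 fit, in the interaction 993 and 1981 by DESeq2, and between the treated lines 3746, or 5751 with no filter. No paired analysis was run, because the labels do not say which samples of different groups, if any, were handled together. An effect of shared handling on the calls was not tested. Depth limits Snrpn in 67NR and Srsf12, both under 3 counts in most samples.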
